A study of Homo sapiens with 12 samples.

Results

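The 46 genes described here encode proteins of the lysosome, the acidic compartment in which cells digest their own and engulfed material. They were chosen by name from the functions of their products: 11 cathepsins, 11 glycosidases, 5 sulfatases, 8 proteins of lipid breakdown and export, 7 membrane proteins, 2 other hydrolases, and TFEB and TFE3, transcription factors of lysosome genes. All 46 were among the 16383 genes listed in the deposited table. Of these, 44 were tested, as part of the 11242 genes whose mean over the 12 libraries reached 10 normalized counts. A normalized count is a gene's read count divided by the authors' scaling factor for that library. The 2 members below this minimum were NEU1, with a mean of 0.259, and CTSO, with 0.165, and the tested member nearest to it was CTSH, with 28.9.

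The cells were IMR90, an established line of human lung fibroblasts, and poly(A) RNA was sequenced from 4 groups of 3 samples. Proliferating cells had received neither radiation nor a drug. The other 3 groups had been made senescent with 20 Gy of ionizing radiation delivered within 10 min, and were collected on day 11. On days 4, 6, 8 and 10 they received DMSO, the solvent control, palbociclib at 2 µM or ruxolitinib at 2 µM. Palbociclib inhibits the cyclin-dependent kinases CDK4 and CDK6, and ruxolitinib inhibits the Janus kinases JAK1 and JAK2. No inhibitor was given without radiation, so each inhibitor is compared with irradiated cells given DMSO. Those DMSO libraries also enter the comparison with proliferating cells, so the 3 comparisons share them. No DMSO treatment and no collection day are recorded here for the proliferating cells. Differences described below as after irradiation are between these 2 groups, so solvent and days in culture cannot be told apart from radiation. A single cell line was used, and the labels do not say whether the samples of a group were separate cultures, so p-values measure the spread between these samples.

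Lysosomal hydrolases are made in the endoplasmic reticulum, tagged with mannose 6-phosphate in the Golgi and delivered to a compartment that the V-ATPase proton pump keeps acidic. Cathepsins cut proteins, glycosidases and sulfatases take apart glycosaminoglycans, glycoproteins and glycolipids, and a further group of enzymes and binding proteins handles ceramide, sphingomyelin, gangliosides and cholesterol. Inherited loss of single members causes the lysosomal storage diseases. TFEB and TFE3 enter the nucleus when the nutrient sensor mTORC1 is inactive and bind the CLEAR element, an E-box in the promoters of many of these genes. Senescent cells stop dividing, enlarge and accumulate lysosomes, and the activity of one member, the β-galactosidase GLB1, is their usual histochemical marker.

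The recovered reads over listed genes were 14106799 to 21762412 per library. Summed normalized counts were 19409359 ± 336467 in the proliferating group (SD, n = 3), 16554893 ± 192963 with DMSO, 19369896 ± 68982 with palbociclib and 16844894 ± 60521 with ruxolitinib. The authors' scaling therefore left totals that differ between groups, and where a direction depends on this scaling it is said beside the result. All 12 fibroblast markers were tested, and their summed level was 1053809.6 to 1096828 normalized counts in the proliferating group, 601705 to 608547 with DMSO, 870811 to 926061 with palbociclib and 717619 to 725041 with ruxolitinib. COL1A1, COL1A2, FN1 and VIM held most of this sum. With DMSO, 2 markers, DCN and THY1, were higher than in proliferating cells and 10 lower (limma, adjusted p under 0.05), against 33.0% and 39.3% of all tested genes. With palbociclib 8 were higher and 1 lower than with DMSO, against 26.0% and 22.3%. Of 10 macrophage and leukocyte markers 2 were tested, CD14 and CSF1R. AIF1 and TYROBP were at 0 in every library, which is not read here as their level in the cells or as absence of a cell type. Of 9 epithelial and 7 endothelial markers, 5 and 2 were tested. Summed over all 9 and all 7, they were at 2161 to 2671 and 1681 to 1949 in proliferating cells, 1947 to 2219 and 2395 to 2558 with DMSO, 3776 to 4432 and 3503 to 4382 with palbociclib, and 1904 to 2049 and 2251 to 2259 with ruxolitinib. TEK alone held nearly all of the endothelial sum, with 1676 to 1941 in proliferating cells and 3466 to 4359 with palbociclib. VWF, the other endothelial marker tested, did not exceed 35.1 in any library. The part of these markers in the results was not tested. In bulk samples, fewer cells of a type and less RNA per cell cannot be told apart.

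After irradiation, most lysosomal genes were higher. Of the 44 tested members, 34 rose and 3 fell between proliferating cells and senescent cells given DMSO, and 7 did not pass (limma, adjusted p under 0.05): CTSB, CTSH, GLA, ARSB, NPC2, LAMP2 and CD63. With libraries scaled to an equal total, called the same total below, 40 were called higher and 2 lower: CTSB (0.24), ARSB (0.25), GLA (0.38), NPC2 (0.39), LAMP2 (0.30) and CD63 (0.38) then passed (log2 fold changes), and CTSC no longer did. Over all 11242 tested genes, 33.0% were called higher, 39.3% lower and 72.4% either way. The median log2 fold change was 0.49 over the members and -0.049 over all tested genes. At the same total these medians were 0.72 and 0.18, and 5273 genes of all tested were called higher and 2970 lower in place of 3714 and 4420. The direction of every called member was the same under each scaling and tool tried. At least doubled were 9 members, led by the fucosidase FUCA1, the iduronidase IDUA and cathepsin S, and 1 member, PPT1, fell by as much, against 20.0% of all tested genes. Proliferating and DMSO libraries did not overlap for 38 of 44 members, against 75.1% of all tested genes.

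**Figure D1:**
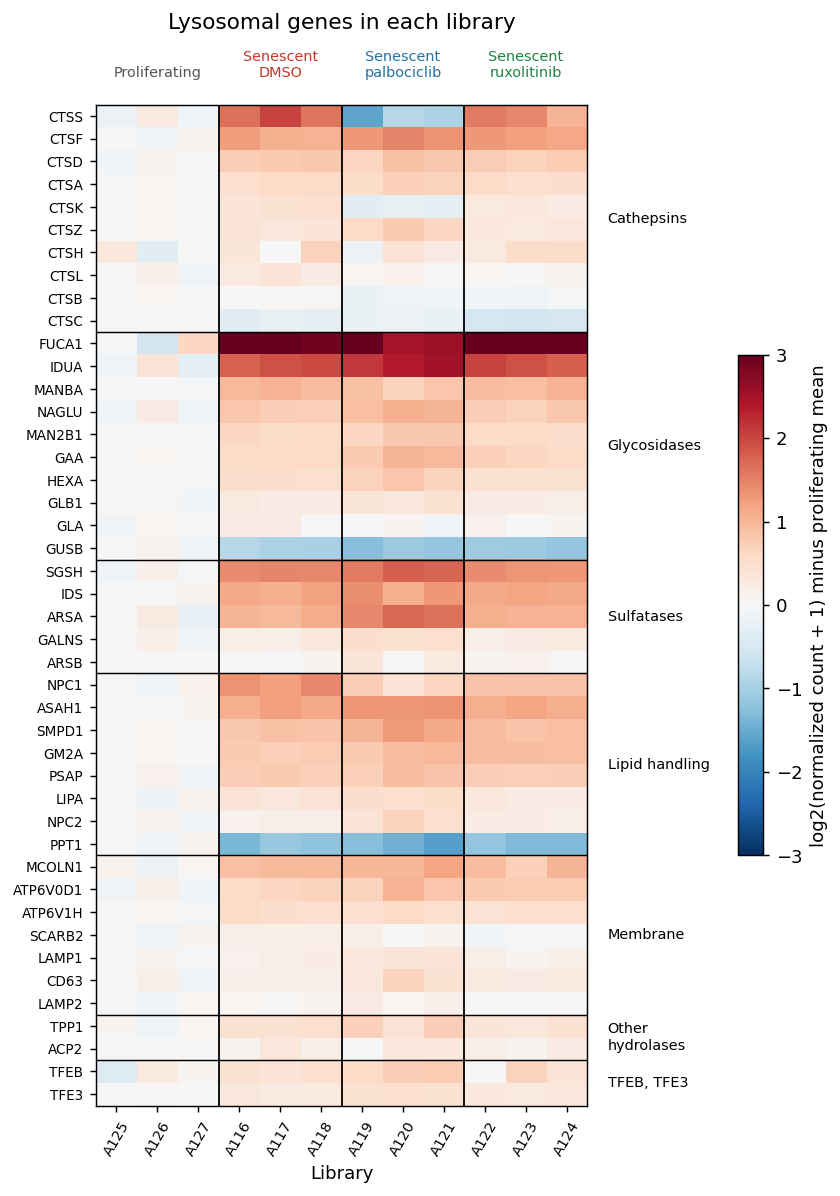
Level of the 44 tested lysosomal genes (rows, grouped by class and ordered by the change after irradiation) in each of 12 libraries (columns, 3 per group), as log2(normalized count + 1) minus the mean of the proliferating libraries, with the colour scale ending at -3 and 3. FUCA1, IDUA, CTSS and SGSH are the reddest rows in the DMSO columns, PPT1 and GUSB are blue in every irradiated library, and CTSS is blue with palbociclib.

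Summed over the 46 genes, the level was 104942 ± 3540.1 normalized counts in proliferating cells (SD, n = 3) and 131608 ± 1169.8 with DMSO. It was 140226 ± 5299 with palbociclib and 127758 ± 1672 with ruxolitinib. As a share of the reads over listed genes, the 46 took 0.541 ± 0.0261% in the proliferating group, 0.795 ± 0.00231% with DMSO, 0.724 ± 0.0298% with palbociclib and 0.758 ± 0.00996% with ruxolitinib. Both quantities were higher with DMSO than in the proliferating cells in every library. Between palbociclib and DMSO the 2 quantities went opposite ways, the sum higher by 6.55% and the share lower, a difference of -8.93%. Each of these differences had an exact two-sided permutation p of 0.1, the smallest that 3 against 3 libraries allow.

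**Figure D2:**
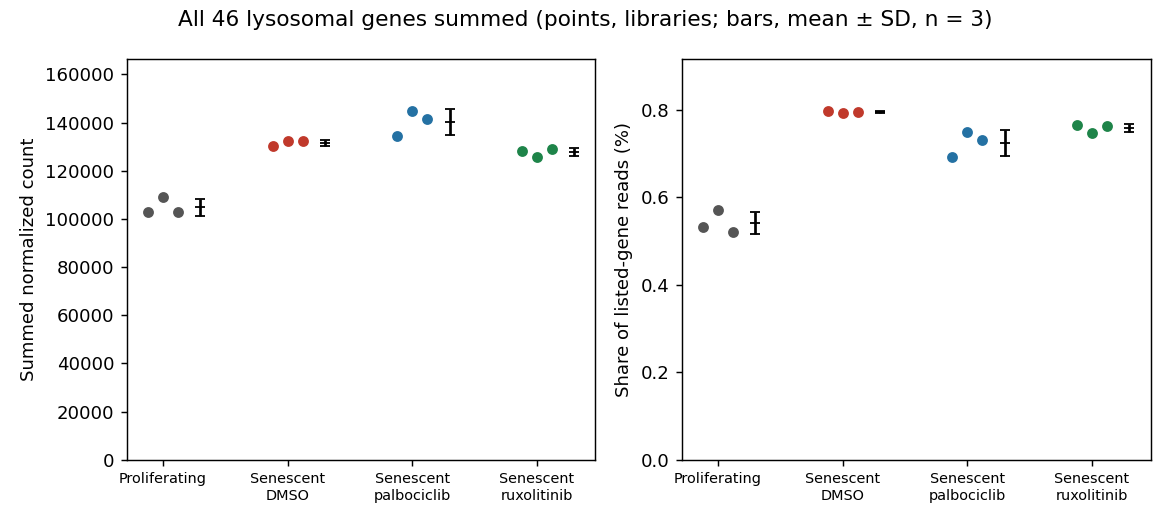
Summed normalized count of the 46 lysosomal genes (left) and their share of the reads over listed genes in percent (right), by group, with points for libraries and bars for mean ± SD (n = 3). The DMSO libraries lie above the proliferating ones in both panels, whereas the palbociclib libraries lie above DMSO on the left and below it on the right.

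With palbociclib, a few members changed under every setting tried, while the balance of the others depended on the scaling. At the authors' scaling 19 members were called higher than with DMSO and 7 lower, against 26.0% and 22.3% of all tested genes (48.3% either way). Cathepsin S alone changed at least 2-fold, as 6.00% of all tested genes did, and 29 of 44 members did not overlap between these groups, against 54.8%. At the same total, 1 was called higher and 16 lower. With quantile normalization these counts were 7 and 10, where 2726 and 2269 of all tested genes were called. The members' median log2 fold change was 0.13 as deposited and -0.096 at the same total, where the median of all tested genes moved from 0.018 to -0.21, with 940 of them called higher and 5170 lower in place of 2927 and 2505. Without library A121, 12 members were called higher, beside 2561 of all tested genes. In all 23 refits, 6 calls held: arylsulfatase A (ARSA) rose, and cathepsins S, K and L, the cholesterol exporter NPC1 and the glucuronidase GUSB fell. Of the 34 members that rose after irradiation, 5 were called lower with palbociclib (CTSK, CTSL, CTSS, MANBA and NPC1), 16 higher and 13 neither at the authors' scaling.

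**Figure D3:**
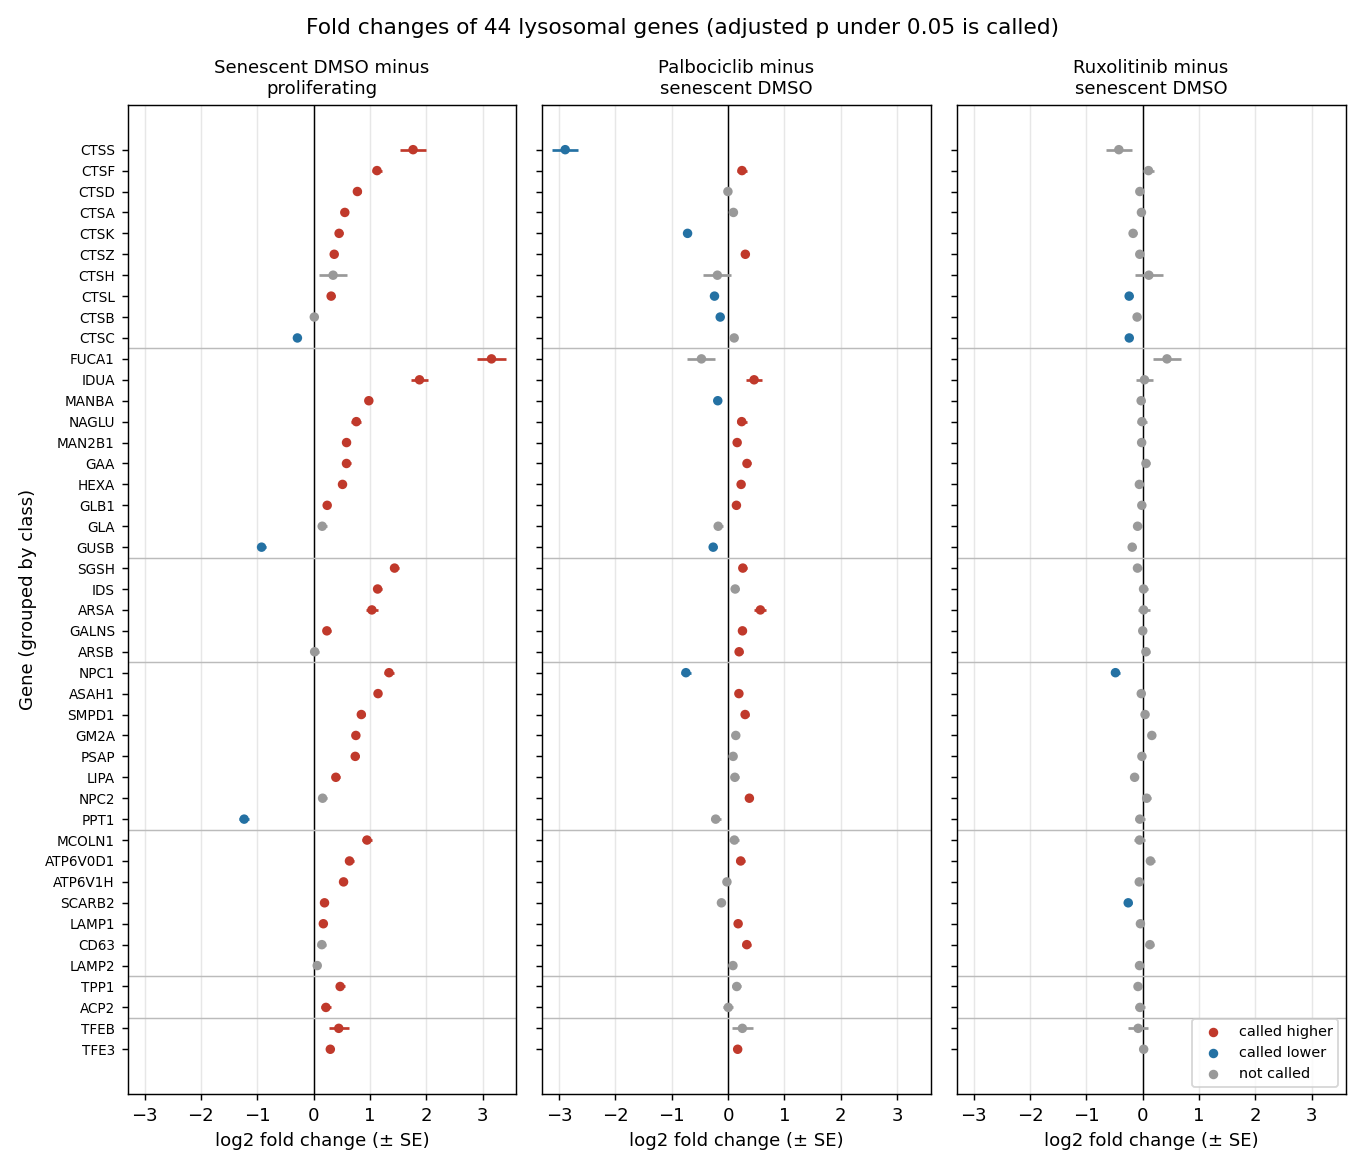
Log2 fold change ± SE of the 44 tested genes for senescent DMSO against proliferating cells, palbociclib against DMSO and ruxolitinib against DMSO, with red for called higher, blue for called lower and grey for not called. Most points lie right of 0 in the first panel, CTSS stands apart on the left in the second, and 4 points are coloured in the third.

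Few members differed with ruxolitinib. None was called higher and 4 were called lower than with DMSO: NPC1, the glucocerebrosidase receptor SCARB2, and cathepsins C and L. Over all tested genes 4.52% were called, 1.10% higher and 3.42% lower. The libraries of the 2 groups did not overlap for 18 members, against 31.9% of all tested genes. At an unadjusted p under 0.05, 1 member was higher and 7 were lower, and edgeR and DESeq2 on the recovered reads each called 0 higher and 4 lower. A fit of only these 2 groups called 4 higher and 7 lower, where it called 843 and 998 of all 11242 tested genes. Limma without a trend called 2 lower, where it called 85 higher and 330 lower of all tested genes. The NPC1 and CTSC calls held in all 23 refits; SCARB2 and CTSL did not.

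Compared directly, palbociclib gave 19 members higher and 4 lower than ruxolitinib, against 22.8% and 17.6% of all tested genes (40.4% either way). At the same total these counts were 3 and 12, and over all tested genes 847 and 4531 in place of 2561 and 1983. The lower members were CTSS (log2 fold change -2.47, SE 0.23, limma adjusted p = 8.06e-07), FUCA1 (log2 fold change -0.90, adjusted p = 0.00916), CTSK (log2 fold change -0.55, adjusted p = 1.44e-05) and NPC1 (log2 fold change -0.27, adjusted p = 0.0186). The NPC1 difference was lost without library A120, A123 or A124, at adjusted p of 0.0523 to 0.0766. ARSA (log2 fold change 0.56, adjusted p = 7.23e-04), CTSC (log2 fold change 0.35, adjusted p = 2.00e-05) and CTSZ (log2 fold change 0.36, adjusted p = 1.15e-04) were higher with palbociclib than with ruxolitinib in all 23 refits. Against proliferating cells, palbociclib-treated cells had 34 members higher and 6 lower, with a median of 0.61, where 35.2% and 38.6% of all tested genes were called, 73.8% in all.

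**Figure D4:**
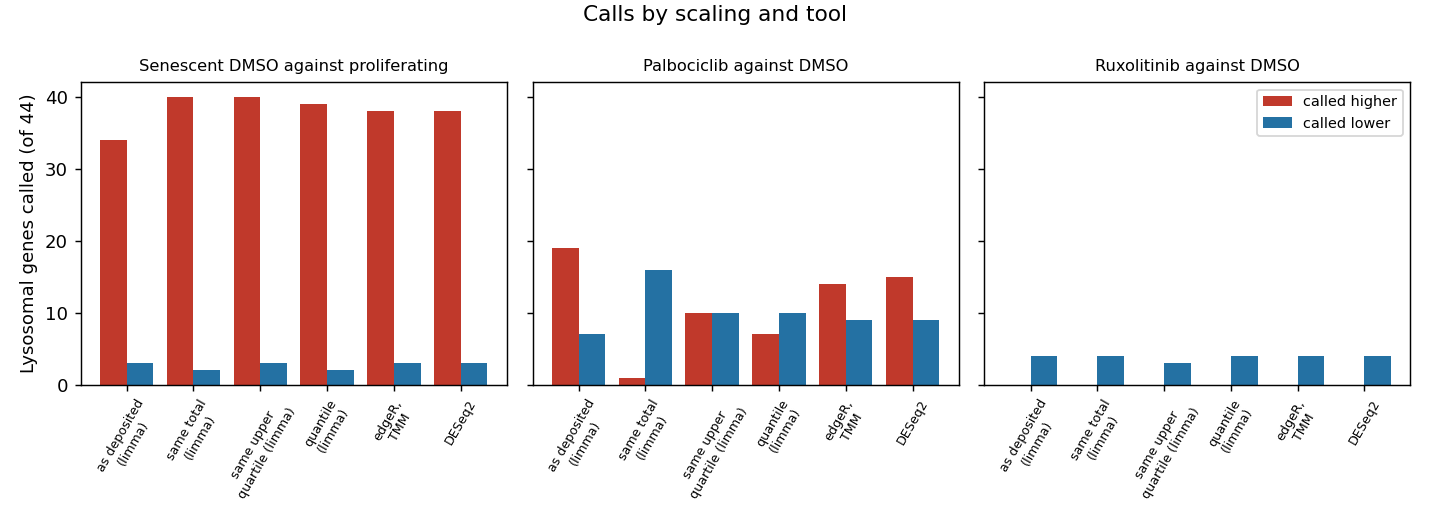
Number of the 44 tested lysosomal genes called higher (red) and lower (blue) at an adjusted p under 0.05, for each scaling or tool on the horizontal axis and 1 comparison per panel. In the first panel the red bars lie between 34 and 40 throughout, and in the palbociclib panel the same-total bars show 1 higher and 16 lower where the deposited values give 19 and 7.

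Cathepsin S, an elastin-cutting cysteine protease that also processes the MHC class II invariant chain, had the widest swing of the proteases. CTSS (chr1:150730079-150765957, minus strand, GRCh38) was at 24.9, 34.4 and 26.7 normalized counts in the proliferating libraries, 91.1, 119.6 and 89.0 with DMSO, 8.85, 15.3 and 14.2 with palbociclib, and 85.6, 79.2 and 58.7 with ruxolitinib. Every DMSO library lay above every proliferating one, and the palbociclib libraries lay below all others, proliferating included. After irradiation it rose 3.40-fold (log2 fold change 1.77, SE 0.23, limma adjusted p = 5.01e-06), and with palbociclib it was 7.42-fold lower than with DMSO (log2 fold change -2.89, SE 0.23, limma adjusted p = 9.99e-08) on the log2(normalized count + 1) scale. Against proliferating cells the palbociclib level was also lower (log2 fold change -1.12, limma adjusted p = 4.25e-04). Against DMSO the ruxolitinib value was not called (log2 fold change -0.42, limma adjusted p = 0.414), and every ruxolitinib library lay above every proliferating one. CTSS is also made by macrophages. The summed macrophage and leukocyte markers were at 14.4 to 21.8 normalized counts in the proliferating group, 61.6 to 77.2 with DMSO, 26.6 to 38.3 with palbociclib and 61.4 to 70.2 with ruxolitinib. Like CTSS, this sum was higher with DMSO than in proliferating cells and lower with palbociclib than with DMSO. The palbociclib values of the sum stayed above its proliferating range, whereas those of the single marker CSF1R overlapped the proliferating values. Of the single markers, CD14 went from 6.23, 1.11 and 4.76 normalized counts in the proliferating libraries to 29.7, 26.0 and 28.9 with DMSO, CSF1R from 8.30, 7.76 and 11.4 to 19.8, 18.9 and 21.97, ITGAM from 0, 1.11 and 0 to 9.90, 10.7 and 5.78, and PTPRC from 1.04, 0 and 0.952 to 9.90, 2.37 and 1.16. FCER1G was at 6.23, 3.33 and 3.81 in the proliferating libraries and at 6.93, 0 and 6.94 with DMSO. LYZ, CD163 and MARCO did not exceed 6.57 in any library. With palbociclib CD14 was at 16.6, 15.3 and 7.11, CSF1R at 2.21, 8.76 and 11.5 and ITGAM at 4.43, 1.09 and 3.55. PTPRC was at 3.32, 3.28 and 5.33 with palbociclib, within its DMSO range, and LYZ at 0, 6.57 and 1.78. With ruxolitinib CD14 was at 20.8, 11.7 and 15.3, below every DMSO library, and CSF1R at 22.4, 28.8 and 27.1, above every DMSO library. The values of 0 for AIF1 and TYROBP are again not read as their level in the cells. The part of such cells in the CTSS values was not tested.

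Cathepsin K, the main collagenase of osteoclasts, followed the same order at a higher level. CTSK was at 383, 401 and 365 normalized counts in the proliferating libraries, 509, 522 and 543 with DMSO, 308, 328 and 319 with palbociclib, and 471, 479.9 and 448 with ruxolitinib. The palbociclib libraries lay below the proliferating ones, and the ruxolitinib libraries lay between these and DMSO. It rose after irradiation (log2 fold change 0.45, SE 0.068, limma adjusted p = 2.14e-05) and fell with palbociclib (log2 fold change -0.72, SE 0.068, limma adjusted p = 6.50e-07). Cathepsin L, a broad endopeptidase, was at 1882, 2133 and 1795 normalized counts in the proliferating libraries, 2386, 2529 and 2289.5 with DMSO, 1997, 2096 and 1995 with palbociclib, and 2022, 1989 and 2084 with ruxolitinib. It rose after irradiation (log2 fold change 0.31, SE 0.063, limma adjusted p = 3.31e-04) and fell with palbociclib (log2 fold change -0.24, adjusted p = 0.00520) and with ruxolitinib (log2 fold change -0.24, adjusted p = 0.0396), each time to levels that overlapped the proliferating ones. The ruxolitinib call was lost without any one of libraries A116, A117, A118, A121, A122, A123, A124 or A125 (adjusted p 0.0550 to 0.190).

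Cathepsin D, the aspartic protease, and cathepsin F, a cysteine protease, rose after irradiation. CTSD was at 3178, 3638 and 3272 normalized counts in the proliferating libraries, 5599.5, 5814 and 5867 with DMSO, 5219, 6153 and 5909 with palbociclib, and 5622, 5409 and 5655 with ruxolitinib. The rise was 1.72-fold (log2 fold change 0.78, SE 0.063, limma adjusted p = 2.11e-08), and the palbociclib and DMSO libraries overlapped (log2 fold change -0.0032, adjusted p = 0.972); at the same total CTSD was called lower with palbociclib (-0.23, adjusted p = 0.00838). The assignment of CTSD reads is uncertain, since 51.2% of its 50-base words also occur in transcripts of other annotated genes. CTSF was at 134, 126 and 147 normalized counts in the proliferating libraries and 325, 286 and 281 with DMSO, a 2.18-fold rise (log2 fold change 1.13, SE 0.092, limma adjusted p = 2.11e-08). Its further increase with palbociclib (log2 fold change 0.25, adjusted p = 0.0374) was lost in 11 of 23 refits, including those without library A117, A118, A120, A121 or A123 (adjusted p 0.0505 to 0.133).

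Cathepsin B, the cathepsin with the most reads per kilobase, did not pass after irradiation at the authors' scaling. CTSB was at 19558, 21005 and 20021 normalized counts in the proliferating libraries, 19970.0, 20624 and 20550.2 with DMSO, 17665, 18832 and 19022 with palbociclib, and 19142, 18419 and 19538 with ruxolitinib. The proliferating and DMSO ranges overlapped (log2 fold change 0.014, SE 0.049, limma adjusted p = 0.808). CTSB was called higher at the same total (0.24, adjusted p = 3.78e-04), at the same upper quartile (0.17, adjusted p = 0.00960) and with quantile normalization (0.13, adjusted p = 0.0447). The palbociclib libraries were lower (log2 fold change -0.14, adjusted p = 0.0272), but this call was lost without library A117, A118 or A119 (adjusted p 0.0778 to 0.0998). Cathepsin C, the dipeptidyl peptidase that activates serine proteases of leukocytes, fell after irradiation (log2 fold change -0.29, SE 0.044, limma adjusted p = 2.95e-05) from 5843, 5659 and 5734 to 4556, 4918 and 4668 normalized counts. That call was lost at the same total (-0.057, adjusted p = 0.242) and with quantile normalization (adjusted p = 0.674). With ruxolitinib CTSC fell again, to 4009, 3907 and 4069.5 (log2 fold change -0.24, SE 0.044, limma adjusted p = 0.00468), below every library of the other groups. Of the remaining cathepsins, CTSA (log2 fold change 0.56, adjusted p = 1.20e-07) and CTSZ (log2 fold change 0.37, adjusted p = 2.12e-05) rose after irradiation, with 31.7% of the CTSZ exons overlapped by NELFCD on the opposite strand and the strand setting of the counting not given in the sources used here. CTSH, at 18.9 to 39.3 normalized counts, did not pass (log2 fold change 0.35, adjusted p = 0.222), and its sign turned with quantile normalization (-0.30).

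**Figure D5:**
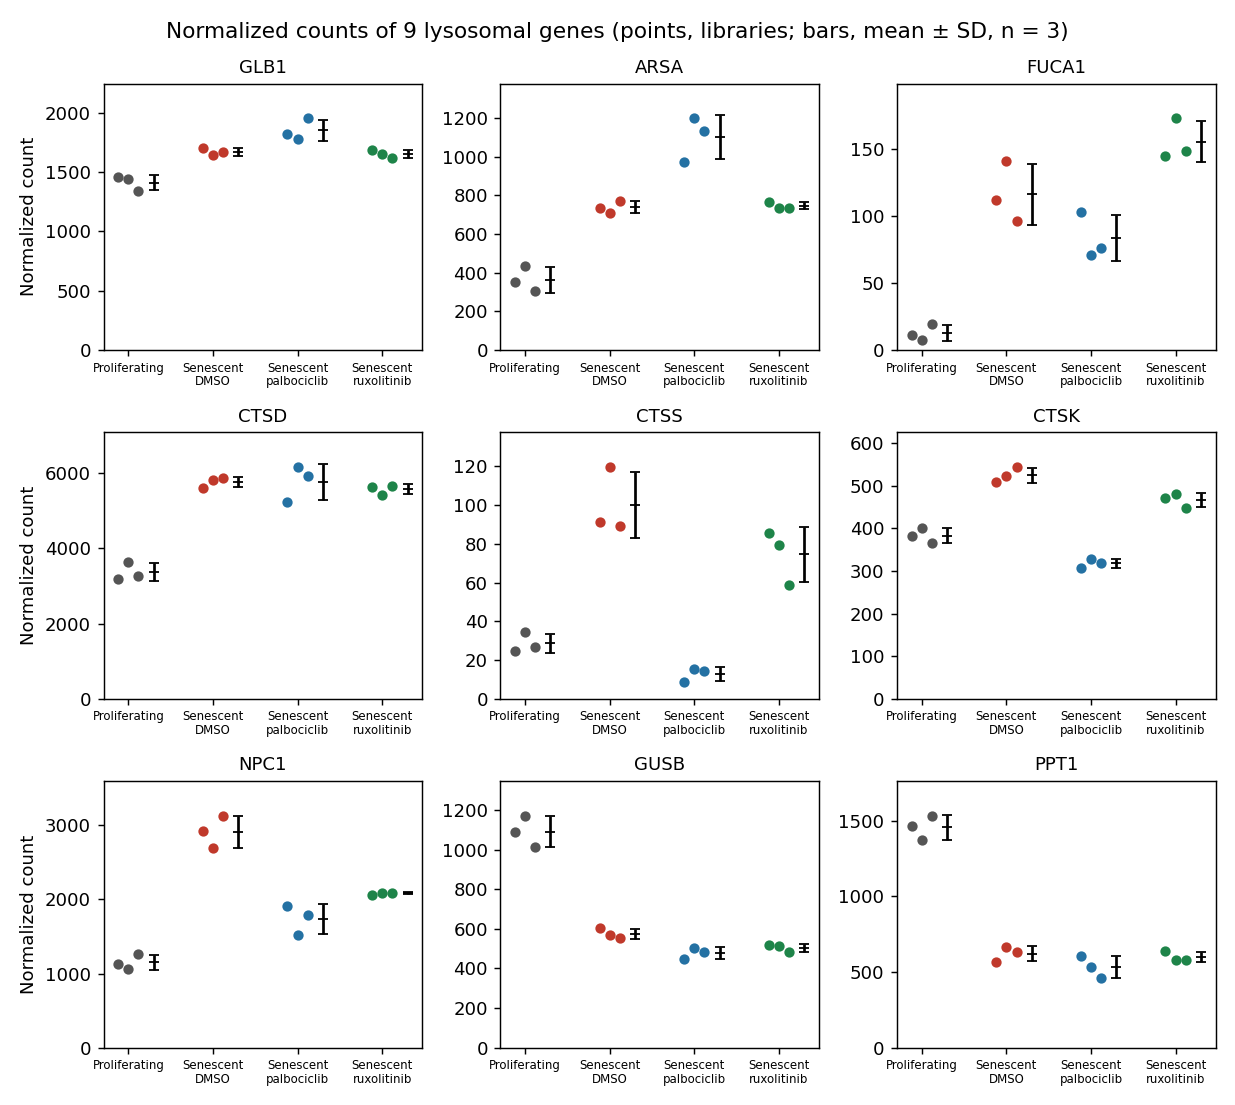
Normalized counts of 9 lysosomal genes in each library (points) with mean ± SD (bars, n = 3), by group and each on its own axis from 0. CTSS, CTSK and NPC1 are high with DMSO and lower with palbociclib, ARSA is highest with palbociclib, and GUSB and PPT1 are lower in every irradiated library than in any proliferating one.

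FUCA1, which removes fucose from glycoproteins and glycolipids, had the largest log2 fold change of all 44 tested members after irradiation. FUCA1 (chr1:23845077-23868290, minus strand) was at 11.4, 7.76 and 19.0 normalized counts in the proliferating libraries, 112, 141 and 96.0 with DMSO, 103, 71.2 and 76.4 with palbociclib, and 145, 173 and 149 with ruxolitinib. Every irradiated library lay above every proliferating one, and the palbociclib and ruxolitinib libraries did not overlap. The rise was 8.93-fold on the log2(normalized count + 1) scale (log2 fold change 3.16, SE 0.25, limma adjusted p = 1.40e-08). Neither inhibitor's value was called against DMSO (palbociclib -0.47 with adjusted p = 0.130, ruxolitinib 0.43 with adjusted p = 0.446), but the palbociclib level was lower than the ruxolitinib level (log2 fold change -0.90, SE 0.25, limma adjusted p = 0.00916). At the same total the difference between palbociclib and DMSO was called (-0.70, adjusted p = 0.0245), as it was by edgeR and DESeq2 (adjusted p = 0.0348 and 0.0292).

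IDUA, the α-L-iduronidase that acts on heparan and dermatan sulfate, was at 89.2, 126 and 80.0 normalized counts in the proliferating libraries, 331, 366 and 382 with DMSO, 423, 508 and 562 with palbociclib, and 396, 368 and 338 with ruxolitinib. Its rise after irradiation was 3.68-fold (log2 fold change 1.88, SE 0.14, limma adjusted p = 1.04e-08), with no overlap. All palbociclib libraries lay above the DMSO ones (log2 fold change 0.46, adjusted p = 0.0158), a call that was lost without library A116 or A121 (adjusted p 0.0668 to 0.0801) and at the same total (0.24, adjusted p = 0.198). MANBA, the β-mannosidase, rose from 695, 675 and 668 to 1341, 1393 and 1294 normalized counts (log2 fold change 0.98, SE 0.065, limma adjusted p = 1.90e-09). With palbociclib it was at 1259, 1077 and 1217 (log2 fold change -0.18, adjusted p = 0.0300), a decrease no longer called without library A116, A117 or A120 (adjusted p 0.0703 to 0.133).

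GLB1, whose product gives senescence-associated β-galactosidase staining, rose by a small amount. Its values were 1455, 1441 and 1336 normalized counts in the proliferating libraries, 1699.5, 1638 and 1665 with DMSO, 1818, 1778 and 1951 with palbociclib, and 1684, 1654 and 1613 with ruxolitinib. Every DMSO library exceeded every proliferating one, and the rise was 1.18-fold (log2 fold change 0.24, SE 0.053, limma adjusted p = 7.62e-04). With palbociclib GLB1 was called higher at the authors' scaling (log2 fold change 0.15, adjusted p = 0.0326), but not at the same total, where the sign turned (-0.079), nor by edgeR or DESeq2, nor without library A116, A117, A118 or A121 (adjusted p 0.0528 to 0.142). Ruxolitinib gave no called difference (log2 fold change -0.015, adjusted p = 0.942).

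GUSB, the β-glucuronidase, was the one glycosidase that fell. It was at 1087, 1170.0 and 1015 normalized counts in the proliferating libraries, 603, 567 and 554 with DMSO, 447, 505 and 483 with palbociclib, and 518, 513 and 483 with ruxolitinib. Every irradiated library lay below the proliferating range, 1.89-fold lower with DMSO (log2 fold change -0.92, SE 0.071, limma adjusted p = 1.13e-08), and it was lower again with palbociclib (log2 fold change -0.26, SE 0.071, limma adjusted p = 0.00663). The other glycosidases that rose after irradiation were NAGLU (log2 fold change 0.76, adjusted p = 1.38e-06), MAN2B1 (log2 fold change 0.59, adjusted p = 1.50e-07), the glycogen-degrading GAA (log2 fold change 0.58, adjusted p = 2.22e-06) and HEXA, the α subunit of β-hexosaminidase (log2 fold change 0.51, adjusted p = 2.34e-07). GLA, the α-galactosidase A, did not pass (log2 fold change 0.15, adjusted p = 0.103). For MAN2B1, NAGLU and HEXA, 33.1%, 11.5% and 13.7% of the 50-base words of the longest transcript also occur in transcripts of other annotated genes. Their counts are uncertain where the counting could split such reads.

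Of the sulfatases, 4 of 5 rose after irradiation, 3 of them at least 2-fold. SGSH, the heparan sulfate sulfamidase, was at 551, 667 and 582 normalized counts in the proliferating libraries, 1605, 1639.6 and 1620.0 with DMSO, 1775, 2075 and 1992 with palbociclib, and 1599, 1489 and 1478 with ruxolitinib. Every DMSO library lay above every proliferating one, and the rise was 2.71-fold (log2 fold change 1.44, SE 0.073, limma adjusted p = 7.90e-11). All palbociclib libraries lay above the DMSO ones (log2 fold change 0.26, adjusted p = 0.00849), but at the same total the difference was not called (0.035, adjusted p = 0.720), nor at the same upper quartile or with quantile normalization. IDS, the iduronate 2-sulfatase, went from 1519, 1503 and 1697 to 3456, 3310.0 and 3609 normalized counts (log2 fold change 1.14, SE 0.072, limma adjusted p = 1.04e-09). That value is uncertain in its assignment, since 93.0% of the 50-base words of IDS also occur in transcripts of other annotated genes.

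ARSA, the arylsulfatase that breaks down sulfatides, was the one member that rose both after irradiation and with palbociclib in all 23 refits of each comparison. ARSA (chr22:50622754-50628173, minus strand) was at 351, 437 and 304 normalized counts in the proliferating libraries, 732, 710.3 and 774 with DMSO, 975, 1199 and 1134 with palbociclib, and 767, 737 and 737 with ruxolitinib. The 4 groups did not overlap except for DMSO and ruxolitinib, and palbociclib held the highest 3 values. The rise after irradiation was 2.05-fold (log2 fold change 1.04, SE 0.11, limma adjusted p = 3.21e-07), and with palbociclib it was 1.49-fold higher again (log2 fold change 0.57, SE 0.11, limma adjusted p = 4.34e-04), or 0.35 at the same total (adjusted p = 0.0174). GALNS, the galactosamine 6-sulfatase, rose by less (log2 fold change 0.24, adjusted p = 0.00460). ARSB, the arylsulfatase that acts on chondroitin and dermatan sulfate, did not pass after irradiation (log2 fold change 0.020, adjusted p = 0.811) but was called higher at the same total (0.25, adjusted p = 0.00572), at the same upper quartile and with quantile normalization. Its higher value with palbociclib (log2 fold change 0.20, adjusted p = 0.0357) turned to -0.031 at the same total and was lost in 11 of 23 refits, among them without library A116, A117, A119 or A121 (adjusted p 0.0748 to 0.149).

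NPC1, the membrane transporter that moves cholesterol out of the lysosome, was called in each of the 5 comparisons. NPC1 (chr18:23506184-23586506, minus strand) was at 1130.0, 1061 and 1264 normalized counts in the proliferating libraries, 2923, 2697 and 3126 with DMSO, 1912, 1516 and 1789.9 with palbociclib, and 2066, 2089 and 2089 with ruxolitinib. The DMSO libraries were the highest, both inhibitor groups lay between DMSO and proliferating cells, and no 2 groups overlapped. The rise after irradiation was 2.53-fold (log2 fold change 1.34, SE 0.083, limma adjusted p = 7.99e-10). The fall was 1.68-fold with palbociclib (log2 fold change -0.75, SE 0.083, limma adjusted p = 3.31e-06) and 1.40-fold with ruxolitinib (log2 fold change -0.48, SE 0.083, limma adjusted p = 0.00229). NPC2, the soluble protein that hands cholesterol to NPC1, did not pass after irradiation (log2 fold change 0.16, adjusted p = 0.0520) and was called higher with palbociclib at the authors' scaling (log2 fold change 0.38, adjusted p = 4.58e-04), though not at the same total (adjusted p = 0.0976).

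PPT1, a thioesterase that removes palmitate from proteins, showed the largest fall of any tested member after irradiation. It was at 1465, 1373 and 1532 normalized counts in the proliferating libraries, 565, 664 and 633 with DMSO, 604, 536 and 463 with palbociclib, and 638, 579.9 and 577 with ruxolitinib. Each irradiated library was below each proliferating one, and the fall with DMSO was 2.35-fold (log2 fold change -1.23, SE 0.091, limma adjusted p = 6.52e-09). ASAH1, the acid ceramidase, rose 2.21-fold, from 909, 877 and 970.3 to 1947, 2142 and 2009.7 normalized counts (log2 fold change 1.14, SE 0.055, limma adjusted p = 4.31e-11). Its value with palbociclib, 2312, 2306 and 2342, was higher at the authors' scaling (log2 fold change 0.19, adjusted p = 0.0101) and of the opposite sign at the same total (-0.035, adjusted p = 0.585); without library A116 it was not called (adjusted p = 0.0539). SMPD1, the acid sphingomyelinase (log2 fold change 0.85, adjusted p = 4.56e-09), GM2A, the GM2 ganglioside activator (log2 fold change 0.75, adjusted p = 2.44e-08), PSAP, the precursor of the saposins (log2 fold change 0.74, adjusted p = 1.75e-08), and LIPA, the acid lipase (log2 fold change 0.40, adjusted p = 6.08e-05), also rose after irradiation.

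Among the membrane proteins, 5 of 7 rose, with a median log2 fold change of 0.20 after irradiation against 0.59 for the glycosidases, 1.04 for the sulfatases, 0.75 for the lipid-handling proteins and 0.41 for the cathepsins; the difference between classes was not tested. MCOLN1, the calcium channel TRPML1, had the largest change of this class. It was at 349.7, 289 and 334 normalized counts in the proliferating libraries, 604, 632 and 641 with DMSO, 644, 650.2 and 736 with palbociclib, and 620.3, 535 and 656 with ruxolitinib. The rise after irradiation was 1.93-fold (log2 fold change 0.95, SE 0.090, limma adjusted p = 1.26e-07), and neither inhibitor's difference was called (palbociclib 0.11 with adjusted p = 0.322, ruxolitinib -0.056 with adjusted p = 0.837). The palbociclib sign turned at the same total (-0.11). Of the V-ATPase subunits in the list, ATP6V0D1 rose 1.56-fold (log2 fold change 0.64, SE 0.083, limma adjusted p = 4.18e-06) and ATP6V1H 1.45-fold (log2 fold change 0.53, adjusted p = 2.89e-07). The palbociclib call for ATP6V0D1 (log2 fold change 0.22, adjusted p = 0.0358) was lost without library A116, A117, A118, A120 or A121 (adjusted p 0.0514 to 0.159), and its sign turned at the same total (-0.0032).

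LAMP1 and LAMP2 are the abundant glycoproteins that line the lysosomal membrane. LAMP1 was at 6958, 7681 and 6936 normalized counts in the proliferating libraries, 7916, 8088 and 8317 with DMSO, 8987, 9206 and 9321 with palbociclib, and 8056, 7645 and 7956 with ruxolitinib. It rose 1.13-fold after irradiation (log2 fold change 0.17, SE 0.049, limma adjusted p = 0.00507), and was called higher with palbociclib at the authors' scaling (log2 fold change 0.18, adjusted p = 0.00800) but had the opposite sign at the same total (-0.049) and with quantile normalization (-0.088). LAMP2 was at 3861, 3566 and 3935 normalized counts in the proliferating libraries and 3929, 3907 and 4046 with DMSO, which overlapped (log2 fold change 0.066, SE 0.054, limma adjusted p = 0.282). The irradiation values of LAMP2, CD63, NPC2 and GLA, not called by limma at the authors' scaling, were called higher by edgeR and DESeq2 on the recovered reads.

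CD63, a tetraspanin of late endosomes and exosomes, had the most reads per kilobase of any member. It was at 14423, 16901 and 14039.9 normalized counts in the proliferating libraries, 16633, 16782 and 16654 with DMSO, 18786, 23901 and 20629 with palbociclib, and 18297, 17875 and 18570.1 with ruxolitinib. The DMSO libraries lay within the wide proliferating range (log2 fold change 0.15, adjusted p = 0.104). All palbociclib libraries lay above those of every other group (against DMSO, log2 fold change 0.33, SE 0.079, limma adjusted p = 0.00290), yet at the same total the difference was 0.10 (adjusted p = 0.298). SCARB2, which carries glucocerebrosidase to the lysosome, was at 6258, 5551 and 6544 normalized counts in the proliferating libraries, 6872, 7033 and 7057 with DMSO, 6905, 6017 and 6419.6 with palbociclib, and 5771, 5857 and 5918 with ruxolitinib. It rose after irradiation (log2 fold change 0.20, adjusted p = 0.00982), though not without library A126 (adjusted p = 0.0530). With ruxolitinib it fell (log2 fold change -0.26, SE 0.061, limma adjusted p = 0.0247), a call lost without library A116, A117, A118, A122, A123 or A124 (adjusted p 0.0704 to 0.109).

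Both remaining hydrolases rose after irradiation. TPP1, a tripeptidyl peptidase, went from 1625, 1393 and 1581 to 2100.4, 2093 and 2175 normalized counts (log2 fold change 0.47, SE 0.077, limma adjusted p = 5.04e-05), with 17.6% of its 50-base words shared with transcripts of other annotated genes. ACP2, an acid phosphatase, went from 599, 622 and 637 to 670.1, 785 and 713 (log2 fold change 0.22, SE 0.086, limma adjusted p = 0.0304), a call lost without library A117, A118 or A125 (adjusted p 0.0562 to 0.144). Neither was called with palbociclib or ruxolitinib at the authors' scaling, and at the same total ACP2 was called lower with palbociclib (-0.22, adjusted p = 0.0365).

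TFE3 was the more abundant of the 2 transcription factors, with 994 ± 26.3 normalized counts per kilobase of its canonical transcript with DMSO (SD, n = 3) against 41.4 ± 1.28 for TFEB. TFE3 was at 2628, 2713 and 2637 normalized counts in the proliferating libraries, 3366, 3199 and 3245 with DMSO, 3645, 3751 and 3638 with palbociclib, and 3319, 3265 and 3345 with ruxolitinib. It rose 1.23-fold after irradiation (log2 fold change 0.30, SE 0.043, limma adjusted p = 1.48e-05). With palbociclib it was called higher at the authors' scaling (log2 fold change 0.17, adjusted p = 0.00469), but the sign turned at the same total (-0.057). TFEB was at 54.0, 86.5 and 75.2 normalized counts in the proliferating libraries, 97.0, 93.5 and 99.4 with DMSO, 107, 119 and 119.9 with palbociclib, and 71.0, 114 and 93.8 with ruxolitinib. Its rise after irradiation (log2 fold change 0.45, SE 0.18, limma adjusted p = 0.0365) was lost without library A116, A117, A118 or A125 (adjusted p 0.0603 to 0.202), without the filter on low values (adjusted p = 0.0572) and with quantile normalization (adjusted p = 0.258). RNA levels do not report where these factors are in the cell.

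The core of the CLEAR element is the palindrome CACGTG, usually preceded by a T. RefSeq promoter sequences (GRCh38.p14, from 250 bases before to 50 after each annotated start) matched 33 of the 46 members by symbol, and were searched on both strands. CACGTG occurred in 11 of these 33 (33.3%) and in 8.78% of all 27305 genes with a promoter sequence. TCACGTG, or CACGTGA on the other strand, which contains that palindrome, occurred in 10 (30.3%) and in 4.49% of all genes. A gene counted if the promoter of any of its annotated starts matched. Counted by promoter, CACGTG was in 11 of 48 of the members and 7.26% of all 35116, and TCACGTG in 10 of 48 and 3.71%. These 10 were ARSB, ATP6V0D1, CTSA, CTSD, CTSF, GAA, GALNS, LAMP1, MCOLN1 and NEU1. NEU1, which was not tested, and CTSA and ATP6V0D1, which rose after irradiation, are not shown. Stretches from the other 7 are shown, 6 from genes that also rose and 1 from ARSB, which did not pass. They run 5′ to 3′ on the gene's strand, with every T or A that completes TCACGTG or CACGTGA and the palindrome itself in capitals.
CTSF (chr11:66568702-66568751, minus strand): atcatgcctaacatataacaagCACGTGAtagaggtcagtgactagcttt
CTSD (chr11:1763947-1763996, minus strand): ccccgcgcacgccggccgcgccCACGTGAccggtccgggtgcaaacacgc
GAA (chr17:80101483-80101532, plus strand): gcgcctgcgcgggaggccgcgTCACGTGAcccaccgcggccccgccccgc
GALNS (chr16:88857094-88857143, minus strand): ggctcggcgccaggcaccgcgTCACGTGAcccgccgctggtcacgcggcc
MCOLN1 (chr19:7522561-7522622, plus strand): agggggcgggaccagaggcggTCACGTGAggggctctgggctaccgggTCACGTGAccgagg
LAMP1 (chr13:113297025-113297074, plus strand): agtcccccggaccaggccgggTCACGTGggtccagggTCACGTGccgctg
ARSB (chr5:78986091-78986140, minus strand): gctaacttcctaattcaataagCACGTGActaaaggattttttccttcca
The LAMP1 promoter held 6 copies of CACGTG, of which 2 are shown, and the MCOLN1 promoter held 2. The CTSF, GAA and GALNS promoters each held 2 as well, of which only the first is shown. Of the 10 members with TCACGTG, 9 were tested: 8 rose and 0 fell after irradiation, with a median log2 fold change of 0.58. Of the 23 tested members whose matched promoters lack it, 16 rose and 3 fell, with a median of 0.35; the difference was not tested. FUCA1 and IDUA, with the 2 largest rises, were among those without it. A match describes the sequence and does not show binding.

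Per kilobase of the canonical transcript, levels spanned a wide range in every group. With DMSO, CD63 was the highest at 16315 ± 78.6 normalized counts per kilobase (SD, n = 3). CTSB at 5459.8 ± 96.0 and PSAP at 5421 ± 133 came next and did not differ beyond their spread. LAMP1 (3001 ± 74.6), CTSD (2803 ± 68.9) and CTSC (2521 ± 98.9) followed. The 4 lowest tested members were FUCA1 (56.9 ± 11.1), TFEB (41.4 ± 1.28), CTSS (25.4 ± 4.34) and CTSH (14.6 ± 3.65). In proliferating cells CTSB was at 5409.8 ± 198 and PSAP at 3249.7 ± 241, a difference larger than their spread. FUCA1 and CTSS, which had 2 of the 3 largest fold changes after irradiation, were thus among the members with the fewest reads per kilobase.

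Other genes of lysosome function outside the 46 were counted the same way. After irradiation 64 of 100 tested rose and 9 fell, where 33.0% of all tested genes rose and 39.3% fell. Among other hydrolases, 14 rose and 2 fell of 20 tested, including the ethanolamide hydrolase NAAA (log2 fold change 1.16, adjusted p = 7.07e-10) and the asparaginyl protease LGMN (log2 fold change 0.78, adjusted p = 1.19e-06). Among V-ATPase subunits, 13 rose and 1 fell of 16 tested, with ATP6V0A1 at a log2 fold change of 1.56 (adjusted p = 2.95e-12). Among other membrane proteins, 15 rose and 1 fell of 19 tested, among them LAMP3 (adjusted p = 1.10e-05), which went from 1.03 to 22.1 normalized counts on average, and the macrophage-associated CD68 (log2 fold change 1.16, adjusted p = 2.21e-10), which moved with the summed macrophage and leukocyte markers given with CTSS, whose part in it was not tested. Of the genes for mannose 6-phosphate tagging and sorting, 5 rose and 2 fell of 15 tested, a share near that of all tested genes that rose, and 13 and 2 were called higher and lower at the same total. Those that rose at the authors' scaling include a subunit of the tagging enzyme, GNPTG (log2 fold change 0.98, adjusted p = 5.36e-09), while the receptor M6PR did not pass there (log2 fold change -0.041, adjusted p = 0.617).

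Among autophagy genes and the relatives of TFEB, 15 rose and 2 fell of 27 tested. MITF rose (log2 fold change 0.69, adjusted p = 4.90e-08). The autophagy receptor SQSTM1 (log2 fold change 1.27, adjusted p = 3.50e-11) and the ATG8 proteins MAP1LC3B (log2 fold change 1.56, adjusted p = 6.41e-13) and GABARAPL1 (log2 fold change 1.69, adjusted p = 8.81e-14) rose. TFEC, also counted among the 15, went from 0.370 to 17.8 normalized counts on average. It reached the minimum mean of 10 only through irradiated libraries, so its rise was favoured by the filter. Of the protease inhibitors, 2 rose and 1 fell of 3 tested, with cystatin C, CST3, at a log2 fold change of 0.91 (adjusted p = 2.74e-08). At the same total, the counts higher and lower after irradiation were 17 and 2 of other hydrolases, 15 and 0 of V-ATPase subunits, 17 and 1 of membrane proteins, 2 and 0 of protease inhibitors and 23 and 1 of autophagy genes, where 5273 and 2970 of all 11242 tested genes were called. With palbociclib at the authors' scaling, the counts higher and lower were 11 and 0 of other hydrolases, 8 and 1 of V-ATPase subunits, 11 and 3 of membrane proteins, 6 and 2 of sorting genes, 2 and 0 of protease inhibitors and 10 and 4 of autophagy genes, against 26.0% and 22.3% of all tested genes. At the same total these counts were 3 and 4, 1 and 3, 3 and 5, 1 and 5, 2 and 0, and 2 and 13, against 940 and 5170 of all 11242 tested genes. The glycoprotein GPNMB rose after irradiation (log2 fold change 3.31, adjusted p = 2.95e-09) and fell with palbociclib (log2 fold change -1.46, adjusted p = 9.39e-05), as did CD68 (log2 fold change -0.74, adjusted p = 2.76e-07). LAMP3 was also lower with palbociclib (log2 fold change -1.79), under the filter limit given with it above. With ruxolitinib limma called none of these genes. At an unadjusted p under 0.05, 11 were higher and 6 lower; edgeR called 0 higher and 0 lower, and DESeq2 1 and 0.

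The 2 members below the minimum gave no comparison. NEU1, the sialidase, had 1 read at most in any library, and CTSO, a cysteine cathepsin, had 2 reads in 1 DMSO library and 0 in the other 11. Around NEU1 on chromosome 6, 19 of its 20 nearest listed genes were also below a mean of 10 normalized counts. Between positions 29000000 and 33000000 of that chromosome (GRCh38), 112 of 119 listed protein-coding genes were below it, or 94.1%, against 27.1% of the other 15111. The near-zero value of NEU1 is thus shared by its neighbours in this table and is not read here as its level in the cells; the cause was not tested.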

How the data were processed

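RNA-seq of 12 IMR90 libraries was analysed. The authors deposited 1 table of normalized counts (unit: signal, none below 0) by Entrez gene. The submitters' processing notes name Trimmomatic 0.38.1, HISAT2 2.2.1, featureCounts 2.0.3, DESeq2 2.11.40.8 and the build GRCh38; the annotation and strand setting used for counting are not given in the sources used here. Column names gave the group and a library number. All 160380 values above 0 were whole multiples of 1 read's worth in their column (tolerance 0.01), so whole reads were recovered.

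limma 3.58.1 (R 4.3.3) was fitted to log2(normalized count + 1) of the 11242 genes with a mean of at least 10, with 4 group means, trended variances and Benjamini-Hochberg adjustment; calls are at 0.05. Fold changes are on that scale, which understates those of low genes. The script was tested on simulated data. Alternatives were pseudocounts of 0.1 and 5, other filters, 3 scalings, no trend, 2-group fits, each library left out, a threshold of 0.01, and edgeR 4.0.16 and DESeq2 1.42.0 on recovered reads. Named genes were the 3 largest changes per class after irradiation, the 2 largest per class with palbociclib, all ruxolitinib calls and 10 further genes; others named were chosen after their values were seen. Members and lists were chosen with earlier results of these data known. By chi-square per gene, no replicate pair was alike within counting noise. The values were 1.94 to 2.75 in DMSO and ruxolitinib pairs, 2.89 to 16.4 in proliferating pairs and 6.18 to 23.9 in palbociclib pairs. The highest were in pairs with the proliferating library A126 or the palbociclib library A120.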

Additional observations from a re-analysis of the deposited data

How the results depend on the processing

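For senescent DMSO against proliferating cells, 33 of 37 called members kept their call in all 23 refits and none changed sign; ACP2, CTSC, SCARB2 and TFEB lost theirs in some. The members' median log2 fold change was 0.49, 0.72 at the same total, 0.65 at the same upper quartile, 0.67 with quantile normalization, 0.55 with edgeR and DESeq2, and 0.49 to 0.54 with each library left out. For palbociclib against DMSO, 6 of 26 calls held in all refits. Members called were 17 at the same total (1 higher, 16 lower, median -0.096), 10 higher at the same upper quartile (median 0.070), 17 with quantile normalization (7 higher, median 0.027) and 16 at an adjusted p under 0.01 (11 higher); with each library left out, 12 to 20 were higher, with medians of 0.10 to 0.15. Among members called at the authors' scaling or under the setting, values of the opposite sign at the same total were ACP2 -0.22, ARSB -0.031, ASAH1 -0.035, CTSC -0.12, GLB1 -0.079, LAMP1 -0.049, LAMP2 -0.14, MAN2B1 -0.066, TFE3 -0.057 and ATP6V0D1 -0.0032, and with quantile normalization LAMP1 -0.088 and PSAP -0.20; 7 and 6 further members, called under neither, also changed sign. For ruxolitinib against DMSO, 2 of 4 calls held in all refits. Members called were 2 without a trend (2 lower), 11 in a 2-group fit (4 higher, 7 lower, beside 843 and 998 of all tested genes), 2 at 0.01 (2 lower) and 2 to 4 with each library left out (2 to 4 lower). The median at the same total was -0.059. For palbociclib against ruxolitinib, 6 of 23 calls held in all refits. Members called were 15 at the same total (3 higher, 12 lower, median -0.058), 15 at the same upper quartile (9 higher, median 0.066), 11 higher with quantile normalization (median 0.011) and 15 at 0.01 (12 higher); the edgeR median was 0.12 and medians with each library left out were 0.13 to 0.17. Among members called at the authors' scaling or under the setting, values of the opposite sign at the same total were GLB1 -0.039, LAMP2 -0.059, MAN2B1 -0.022, TFE3 -0.049 and ATP6V1H -0.16, and with quantile normalization LAMP1 -0.034, LAMP2 -0.034 and TFE3 -0.0058; 10 and 9 further members, called under neither, also changed sign. For palbociclib against proliferating cells, 34 of 40 calls held in all refits, and the median of 0.61 was 0.57 without a filter, 0.70 at the same upper quartile, 0.66 with quantile normalization, 0.65 with edgeR, 0.65 with DESeq2 and 0.56 to 0.64 with each library left out. The cause of these changes was not tested beyond what each setting does by construction. No paired analysis was possible because the columns carry library numbers and no replicate number. With at most 1 and 2 reads in a library, NEU1 and CTSO allowed no comparison.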
